A study of Mus musculus with 14 samples.

Results

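The elements described here were open chromatin regions of adult mouse photoreceptors that appeared in the Nrl-/- peak list and in neither the rod list nor the double-sorted green cone list. The deposited ATAC-seq count table held 53204 elements of 200 bp, and 6881 of them (12.9%) met this rule, which required an overlap of at least 1 bp with a window of 100 bp on each side of an Nrl-/- peak summit and none with the windows of the other 2 lists. ATAC-seq measures chromatin accessibility by inserting sequencing adapters with the Tn5 transposase, which reaches open DNA more easily than packed DNA. All cells came from C57BL/6 mice aged 8 weeks, from retinas dissociated with trypsin and sorted by fluorescence-activated cell sorting (FACS) on green fluorescent protein. Rods came from Nrl-eGFP mice, where the Nrl promoter drives GFP. The Nrl-/- photoreceptors came from Nrl-eGFP;NrlKO mice and carry the same reporter, so they were cells that activated the Nrl promoter but lacked a working Nrl gene. They are labelled blue cones and were used as a model of that cone type, not taken as blue cones of a normal retina. Green cones came from Opn1mw-GFP mice and were sorted once (single-sorted) or by a second pass (double-sorted). Each of the 4 groups had 2 ATAC-seq libraries, and rods and Nrl-/- photoreceptors also had 3 RNA-seq libraries each. The study calls the libraries biological replicates, but the sample labels do not name separate animals, so the p-values below measure only the spread between these libraries, which may be technical.

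Nrl encodes a MAF-family leucine zipper factor that directs photoreceptor precursors to the rod fate, and without it the cells develop with features of cones that express the short-wavelength opsin, Opn1sw. Open chromatin in photoreceptors lies mostly at promoters and at distal elements where factors such as CRX and OTX2 bind. Homeodomain factors fall into K50 proteins such as CRX, which prefer CTAATCC and close variants, and Q50 proteins such as RAX and LHX factors, which prefer TAATTA.

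The members whose accessibility was most particular to the Nrl-/- libraries are shown first, as the extreme of the set and not as typical members. They were the 8 members with the largest ratio of the lower Nrl-/- value to the highest value in any of the 6 other libraries, among the 814 members with a value of at least 10 in both Nrl-/- libraries, in counts scaled to a common library total (CPM). The 7 of them outside exons are printed with the name of the nearest gene, on the plus strand of GRCm38. Also printed are the promoter of Sema6d, which alone among promoters of the listed genes had such a ratio over 1.5 and touched no annotated exon, and the element upstream of Opn1sw, which was chosen after its values were seen. Capitals mark TAATTA (a Q50 homeodomain site), CTAATCC (a K50 homeodomain site), its variant CTAAGCC (also K50), AGGTCA (a nuclear receptor site) or CATCTG (a bHLH site) on either strand, and a run in capitals is a match of letters, not a binding site.
1700109G14Rik, chr14:61302340-61302539, intron: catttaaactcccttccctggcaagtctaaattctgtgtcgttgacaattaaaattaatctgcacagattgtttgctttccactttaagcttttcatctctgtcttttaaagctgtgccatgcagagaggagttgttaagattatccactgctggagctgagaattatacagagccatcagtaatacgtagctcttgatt
Sdc2, chr15:32881742-32881941, intergenic: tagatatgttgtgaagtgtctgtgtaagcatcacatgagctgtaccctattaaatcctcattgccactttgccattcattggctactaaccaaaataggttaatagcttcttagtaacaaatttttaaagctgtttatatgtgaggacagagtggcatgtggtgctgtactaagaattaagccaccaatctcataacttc
Zfp503, chr14:21962780-21962979, intergenic: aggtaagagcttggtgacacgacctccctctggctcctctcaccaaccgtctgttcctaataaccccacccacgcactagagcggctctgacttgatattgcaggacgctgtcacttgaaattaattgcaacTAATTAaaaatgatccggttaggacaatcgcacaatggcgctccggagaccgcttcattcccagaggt
Ackr3, chr1:90353260-90353459, intergenic: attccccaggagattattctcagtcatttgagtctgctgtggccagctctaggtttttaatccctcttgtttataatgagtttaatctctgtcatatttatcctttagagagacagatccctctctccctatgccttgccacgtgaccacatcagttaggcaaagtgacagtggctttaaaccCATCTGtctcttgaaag
Nckap5, chr1:126398756-126398955, intron: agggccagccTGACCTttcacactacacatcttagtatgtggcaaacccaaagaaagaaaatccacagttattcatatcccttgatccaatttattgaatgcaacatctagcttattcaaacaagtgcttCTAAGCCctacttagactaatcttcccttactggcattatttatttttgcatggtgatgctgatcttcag
Cped1, chr6:22104326-22104525, intron: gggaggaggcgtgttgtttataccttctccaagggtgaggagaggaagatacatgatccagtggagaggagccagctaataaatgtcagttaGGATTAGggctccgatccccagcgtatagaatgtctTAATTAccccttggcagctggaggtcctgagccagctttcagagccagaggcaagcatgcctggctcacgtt
Lnx1, chr5:74645379-74645578, intron: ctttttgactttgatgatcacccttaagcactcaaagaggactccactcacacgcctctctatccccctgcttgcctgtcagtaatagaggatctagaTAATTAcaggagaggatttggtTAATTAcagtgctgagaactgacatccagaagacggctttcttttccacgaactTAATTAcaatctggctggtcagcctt
Sema6d, chr2:124609901-124610100, promoter within an intron of another transcript: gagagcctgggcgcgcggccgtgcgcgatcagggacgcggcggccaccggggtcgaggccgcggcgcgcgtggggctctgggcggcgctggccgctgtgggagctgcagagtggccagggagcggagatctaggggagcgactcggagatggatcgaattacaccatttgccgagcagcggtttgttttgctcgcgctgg
Opn1sw upstream, chr6:29388127-29388326, intergenic: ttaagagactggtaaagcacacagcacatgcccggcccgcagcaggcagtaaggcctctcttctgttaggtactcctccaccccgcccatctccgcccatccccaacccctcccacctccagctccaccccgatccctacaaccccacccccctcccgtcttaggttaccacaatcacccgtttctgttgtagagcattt
The Lnx1 element held TAATTA at 3 places and the Zfp503 element at 1. The Cped1 element held both a TAATTA and a CTAATCC, the latter on the minus strand. The Nckap5 element held AGGTCA on the minus strand and a CTAAGCC. The elements near 1700109G14Rik, Sdc2 and Sema6d and the element upstream of Opn1sw held none of these letters.

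Total counts over all elements ranged from 1062403 to 5770075 per ATAC-seq library and were lowest in the double-sorted green cones. Counts over the rows of the RNA-seq table that name a gene ranged from 18376770 to 26312895. Nrl itself was lower in every Nrl-/- library, with 13562, 19169 and 16836 normalized counts in rods and 762, 881 and 548 in Nrl-/- photoreceptors. Summed marker counts of other cells also differed between the RNA groups. Müller glia markers summed to 2545 to 4132 normalized counts in rods and 16146 to 19978 in Nrl-/- photoreceptors, with 2 of 9 tested markers higher in Nrl-/- and most of the sum in Clu. Bipolar markers summed to 9859 to 10944 and 38262 to 44113, with 3 of 9 higher and 1 lower. The lower one was Prkca, the protein kinase C alpha gene of rod bipolar cells, at log2 difference −2.64. Most of the Nrl-/- sum was in Cabp5. Most of the rod sum was in Otx2, which is also a photoreceptor gene. Otx2 had 8029, 8821 and 8348 normalized counts in rods and 7575, 8550 and 8068 in Nrl-/- photoreceptors. Microglia markers summed to 74.5 to 121 and 445 to 915, with 4 of 6 higher. Horizontal cell markers summed to 1199 to 1719 and 2511 to 2644, with 1 of 4 higher, and ganglion cell markers to 40.1 to 78.0 and 175 to 241, with 1 of 3 higher. Endothelial markers summed to 170 to 258 and 39.2 to 67.3, with 1 of 2 lower, and amacrine markers, with none of 2 past the test, summed to 2451 to 2896 and 1550 to 1851. The ganglion cell markers Pou4f2 and Thy1, the amacrine marker Ptf1a and the astrocyte marker Pax2 were at 0 in all 6 libraries. Their part in the results below was not tested, and in bulk samples fewer cells of a type cannot be told apart from less RNA or accessibility per cell. All 6 rod markers, among them the targeted Nrl, were lower and all 7 cone markers higher in Nrl-/- photoreceptors than in rods. Green cones had no RNA-seq libraries, so their label was not checked in this way.

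The members were chosen from peak lists, so their ATAC-seq values in rods, Nrl-/- photoreceptors and double-sorted green cones are given only as a description. The median member had a peak with a −log10 q of 22.3 and a fold enrichment of 6.74 in the Nrl-/- list, and the range over the middle 90% of −log10 q was 15.7 to 59.7. Elements shared by the Nrl-/- and double-sorted lists but absent from rods had a median of 37.7, and elements in all 3 lists a median of 126. The lists ended at different strengths. The weakest peak had a −log10 q of 36.0 in the rod list, 15.3 in the Nrl-/- list and 8.98 in the double-sorted list, and 5642 members (82.0%) had an Nrl-/- peak weaker than any listed rod peak. Absence from the rod list therefore covers both elements with few rod counts and elements below the cutoff of that list, which the rule does not separate.

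Most members lay fully inside an Nrl-/- summit window (6505, 94.5%). The member with the smallest overlap that decided membership, 25 bp, lay near Insm1 at chr2:146223179-146223378. It had 13.3 and 12.6 CPM in rods, 9.52 and 8.85 in Nrl-/- photoreceptors, 10.0 and 8.21 in single-sorted cones and 3.11 and 7.19 in the double-sorted libraries. Just outside the rule, an element near Fig4 at chr10:41260131-41260330 was left out by an overlap of 1 bp with another list. It had 6.25 and 5.65 CPM in rods, 3.31 and 4.54 in Nrl-/- photoreceptors, 3.42 and 6.38 in single-sorted cones and 7.77 and 3.59 in the double-sorted libraries.

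Members were on average weakly accessible elements, with values that ran from rods through green cones to Nrl-/- photoreceptors. The median member had 2.08 and 2.26 CPM in rods, 3.11 and 3.59 in the double-sorted pair, 4.15 and 4.56 in the single-sorted pair and 6.21 and 6.58 in Nrl-/- photoreceptors, after scaling by trimmed mean of M-values (TMM). Members took 1.89% and 2.0% of all counts in rods and 4.90% and 5.29% in Nrl-/- photoreceptors, while the single-sorted pair gave 3.43% and 3.51% and the double-sorted pair 3.18% and 3.29%. In raw counts the medians were 10 and 12 in rods, 15 and 29 in Nrl-/- photoreceptors, 17 and 10 in single-sorted cones and 4 and 4 in the double-sorted libraries. The double-sorted libraries were thus the shallowest over these elements, and 13.3% and 15.0% of members were at 0 there, against 0.378% and 0.0291% in the Nrl-/- libraries and 12.3% and 9.49% in rods. A count of 0 allows up to 3 counts, or 2.33 and 2.69 CPM in the double-sorted libraries and 0.625 and 0.565 CPM in rods, and these limits cover counting error only.

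**Figure D1:**
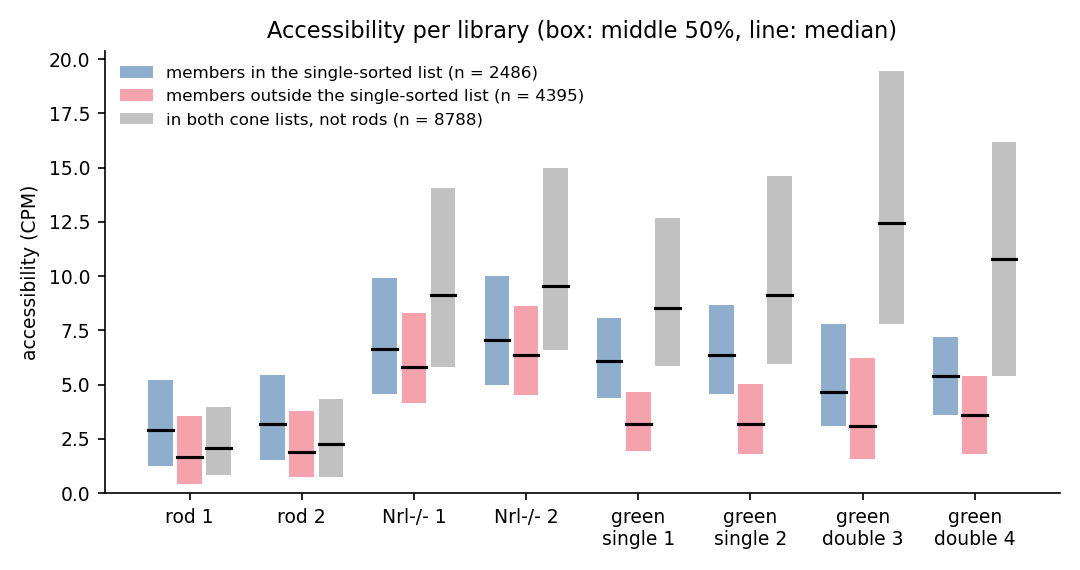
Accessibility in each of the 8 ATAC-seq libraries, in CPM after TMM scaling on an axis from 0, for the 2486 members inside and the 4395 outside the single-sorted list and for the 8788 elements in both cone lists. Boxes span the middle 50% of elements and lines mark the medians, which for members outside the list are 1.67 and 1.88 in rods and 5.80 and 6.36 in Nrl-/- photoreceptors.

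Both Nrl-/- libraries exceeded both rod libraries at 5043 members (73.3%), against 41.6% of all elements. They exceeded both double-sorted libraries at 3262 members (47.4%, against 24.9%) and all 6 other libraries at 2131 (31.0%, against 8.24%). Membership rested on these libraries, so nothing is read from the difference. The reverse order also occurred, since both Nrl-/- libraries were below both rod libraries at 246 members (34.2% of all elements had this order). Tested for a difference of over 2-fold with edgeR and Benjamini-Hochberg adjustment over all elements, 2845 of 6571 tested members were higher in Nrl-/- photoreceptors than in rods and 2 were lower, beside 21.0% and 6.38% of all tested elements. The 2845 became 1642, with 10 lower, without Nrl-/- replicate 2, 1529 with DESeq2 and 1686 when libraries were scaled by processed reads. The median log2 difference was 1.43 for members and 0.07 for all tested elements. Against double-sorted green cones, 1 of 4496 tested members was higher and none was lower, beside 0.00234% and 0.0374% of all tested elements, with a median log2 difference of 0.57. At an unadjusted p under 0.05 these counts were 600 and 2, and DESeq2 also called 1 higher and 0 lower. The count of 1 came with the lowest depths in the series, and it rose to 593 when double-sorted replicate 4 was left out and to 337 without double-sorted replicate 3.

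The 8 members of the largest Nrl-/- ratio had values of 14.9 to 26.5 CPM in the Nrl-/- libraries and no more than 4.14 CPM in any other library. None of them was in the single-sorted list. The element at the first exon of Insm2, a zinc finger gene related to the neuroendocrine factor Insm1, had the largest ratio (chr12:55599274-55599473). It had 19.0 and 17.5 CPM in the Nrl-/- pair, 0.833 and 0.377 in the rod pair, 2.44 and 1.82 in the single-sorted pair and 1.55 and 0.898 in the double-sorted pair, so the lower Nrl-/- value was at least 6.49 times the highest other value or detection limit. Upstream of Sdc2, which encodes the cell surface proteoglycan syndecan-2, the printed element had 15.7 and 15.9 CPM in the Nrl-/- pair, 1.25 and 0.753 in the rod pair, 1.95 and 1.82 in the single-sorted pair and 1.55 and 0 in the double-sorted pair. The intronic element in Nckap5 had 24.8 and 23.8 CPM in the Nrl-/- pair, 2.08 and 2.26 in the rod pair, 1.22 and 4.10 in the single-sorted pair and 3.11 and 3.59 in the double-sorted pair. The Nrl-/- pair lay above every other library at these 3 elements, which their choice by ratio set in advance. Rods and green cones overlapped at the Sdc2 and Nckap5 elements.

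The element near Zfp503, which encodes a zinc finger repressor, had 15.7 and 24.7 CPM in the Nrl-/- pair and at most 1.80 elsewhere. The intergenic element nearest to Ackr3, an atypical chemokine receptor gene 149 kb away, had 15.7 and 21.3 CPM in the Nrl-/- pair and at most 1.95 elsewhere. In the 1700109G14Rik intron the values were 26.5 and 26.3 CPM in the Nrl-/- pair, 3.75 and 4.14 in the rod pair, 0.488 and 2.74 in the single-sorted pair and 0 and 0 in the double-sorted pair. Of these 8 elements, this was the one with more counts in rods than in either kind of green cone library. The intronic elements of Cped1 and Lnx1, the latter with 3 TAATTA matches, had 14.9 and 16.3 and 18.6 and 15.0 CPM in Nrl-/- photoreceptors and at most 1.82 and 2.74 elsewhere.

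**Figure D2:**
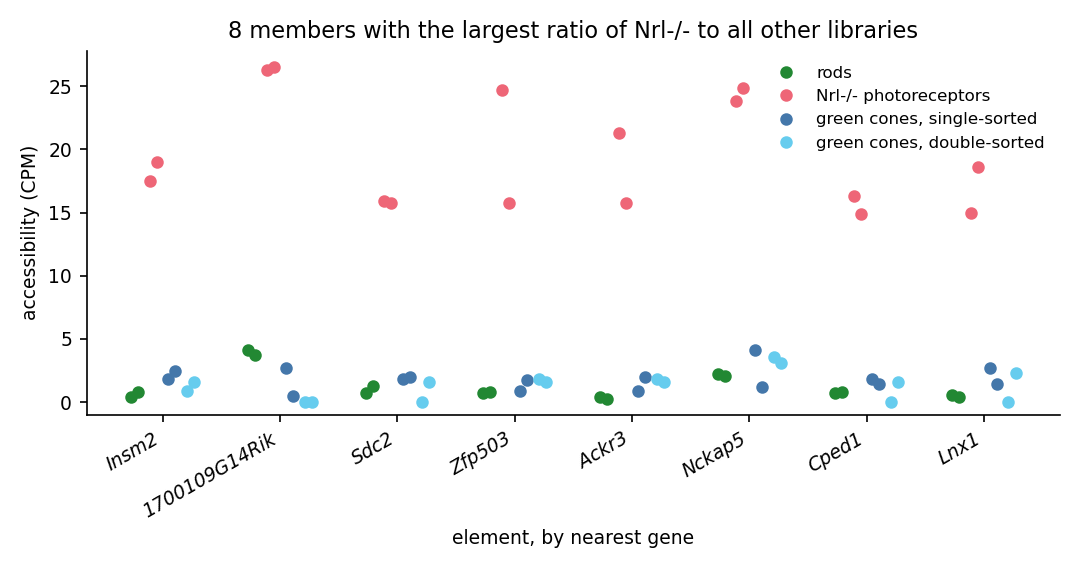
Accessibility of the 8 members with the largest Nrl-/- ratio, in CPM after TMM scaling, with 1 point per ATAC-seq library coloured by group and elements named by nearest gene on the horizontal axis. Both Nrl-/- points lie at 14.9 CPM or more at every element, and every other point at 4.14 CPM or less.

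The members with the highest Nrl-/- levels were a different and mixed group. The highest of all was the Smg1 promoter (chr7:118243506-118243705), at a gene for a kinase of nonsense-mediated decay, with 67.1 and 67.9 CPM in the Nrl-/- pair, 65.0 and 54 in the rod pair, 57.9 and 46.5 in the single-sorted pair and 87.8 and 46.7 in the double-sorted pair. Its Nrl-/- levels lay inside the range of the double-sorted pair and just above the higher rod value, although it met the rule. An intronic member in Ano2, a calcium-activated chloride channel gene of the photoreceptor synapse, was lower in Nrl-/- photoreceptors, with 33.1 and 32.0 CPM, than in rods, with 43.7 and 46.1. Others of the 8 highest were well above every other library. At Gm33035 (chr10:69021960-69022159) the values were 29.8 and 41.1 CPM in Nrl-/- photoreceptors and at most 6.38 elsewhere, and at the promoter of Zbtb16 (chr9:48836274-48836473), a BTB zinc finger repressor gene, they were 27.7 and 34.3 and at most 9.04. An element in a Polr1b intron near Chchd5 (chr2:129124912-129125111) had 29.0 and 36.8 CPM in the Nrl-/- pair, 12.5 and 11.3 in rods and at most 6.35 in green cones, an order with rods above green cones.

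At Opn1sw, the gene of the short-wavelength cone opsin, 5 of the 16 elements within 100 kb were members, and none of the 5 was in the single-sorted list. These elements were chosen for description after their values were seen. The printed element lies 7714 bp upstream of the Opn1sw start site and had 10.8 and 14.5 CPM in the Nrl-/- pair, 0.625 and 0.377 in the rod pair, 1.47 and 1.82 in the single-sorted pair and 0 and 1.80 in the double-sorted pair. Further upstream, an element in an intron of Ccdc136 (chr6:29397621-29397820) had 26.9 and 28.1 CPM in the Nrl-/- pair, 0.417 and 0.377 in the rod pair, 7.81 and 7.30 in the single-sorted pair and 9.33 and 14.4 in the double-sorted pair. Here green cones were also well above rods, unlike at the printed element. Another, in an intron of the neighbouring Calu gene (chr6:29373253-29373452), had 6.62 and 6.13 CPM in the Nrl-/- pair and 0 in both rod and both single-sorted libraries. Around Gnat2, the cone transducin alpha subunit gene, 9 of 23 elements were members, around Otx2 4 of 17, and around Arr3, the cone arrestin gene, 2 of 5. Around Opn1mw, the middle-wavelength opsin gene, 0 of 9 were members, and around Lmna 0 of 26.

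The single-sorted green cone list was not named in the rule, but it is not independent of it, since the double-sorted list that the rule used came from the same Opn1mw-GFP cone type. The shares below are therefore descriptions. Of the 6881 members, 2486 (36.1%) overlapped a peak of that list, with a Clopper-Pearson 95% interval of 35.0% to 37.3% that covers counting error only. The share was 87.6% for elements in the Nrl-/- and double-sorted lists but not in rods, 58.3% for elements in the double-sorted list alone, 38.9% for elements in the rod list alone and 80.2% for all elements. The 3495 elements in none of the 3 lists were all in the single-sorted list, which raises the share over all elements. The share among members was the lowest of these classes. It was 44.5% among the 1239 members whose Nrl-/- peak was at least as strong as the weakest rod peak, a subset chosen after seeing the data, which was still below the 80.2% of all elements. The peak lists have no replicates, so no test over samples was possible.

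Counts in the single-sorted libraries are given for both groups of members as a description, since the list was called from the same libraries and the split sets their order. In members inside the list, the medians of the single-sorted pair were 6.10 and 6.38 CPM, against 6.62 and 7.04 in Nrl-/- photoreceptors, with 2.92 and 3.20 in rods. Outside it they were 3.17 and 3.19 in the single-sorted pair, 5.80 and 6.36 in Nrl-/- photoreceptors and 1.67 and 1.88 in rods. Both Nrl-/- libraries exceeded both single-sorted libraries at 3358 members (48.8%, against 26.1% of all elements) and were below both at 507 (7.37%, against 28.0%). With edgeR and the same threshold, 394 of 6457 tested members were higher in Nrl-/- photoreceptors than in single-sorted green cones and 0 were lower, beside 1.03% and 1.83% of all tested elements, and 382 of the 394 lay outside the list, as that split favours. Without adjustment of p for the number of elements, 987 members would pass 0.05 in the first direction and 10 in the second, whereas DESeq2 with adjustment found 35 and 0. Without Nrl-/- replicate 2 the 394 became 127. Both single-sorted libraries were above both rod libraries at 3737 members (54.3%, against 41.3%) and below both at 687 (9.98%, against 34.9%). With edgeR, single-sorted green cones were above rods at 1269 of 5439 tested members and below them at 23, beside 21.4% and 2.93% of all tested elements. The median log2 difference between single-sorted green cones and rods was 0.73 for members with TMM scaling, but −0.35 when libraries were scaled by the processed reads that the study lists, since that scaling moved the median of all elements from 0.09 to −0.89. Under that scaling 524 members were higher in single-sorted green cones and 371 in rods. Relative to the median of all elements, members stood at 0.64 and 0.54 under these scalings. The 1269 became 559 without single-sorted replicate 1 and 622 without single-sorted replicate 2. The Nrl-/- and rod libraries on the other side of these contrasts took part in the rule, so these counts are descriptions.

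**Figure D3:**
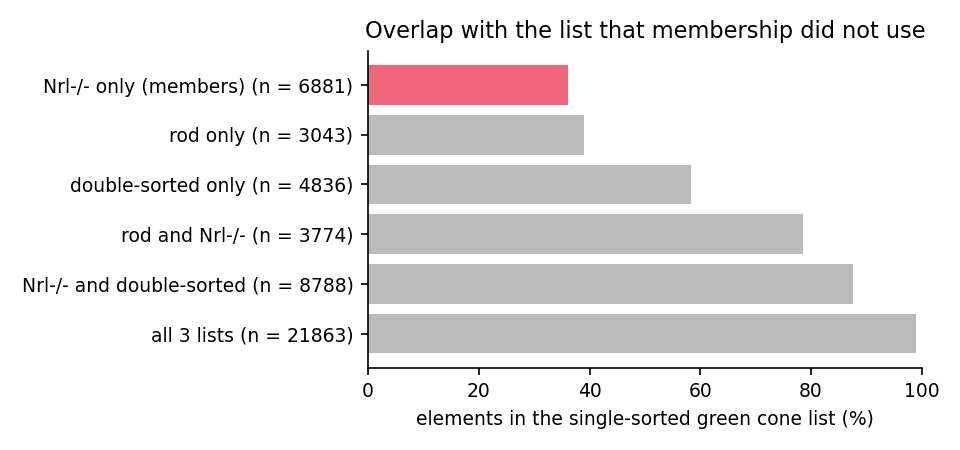
Share of each class of elements that overlaps a peak of the single-sorted green cone list, in percent on an axis from 0, with 1 bar for each of 6 classes defined by the rod, Nrl-/- and double-sorted lists. The members are the lowest bar in value, at 36.1%, next to the elements of the rod list alone at 38.9% and well below those of the Nrl-/- and double-sorted lists at 87.6%.

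Members were mainly distal. Promoters, taken as 1000 bp upstream to 100 bp downstream of a RefSeq start site, held 923 members (13.4%), against 26.6% of all elements and 47.8% of elements in all 3 lists. The share was 12.3% for elements in both cone lists, close to that of members. The median distance to a start site was 14.8 kb for members, 10.2 kb for those in the single-sorted list and 17.2 kb for those outside it, against 8.40 kb for all elements and 22.9 kb for elements in both cone lists. Introns held 49.8% of members and intergenic sequence 39.6%. Members lay 5.10 kb from the nearest other element in the median, against 3.36 kb for all elements and 6.69 kb for elements in both cone lists. Another member was an adjacent element for 32.8% of members, against 23.7% of all elements and 29.5% of elements in both cone lists. Of the latter, 49.1% had an adjacent element of their own class. There were 214 runs of 3 or more adjacent members with no other element between them. The longest held 8 members and lay between Naa11 and Antxr2 on chromosome 5, and 2 of the 7 runs of 6 lay at Schip1, a gene for a protein of the axon initial segment, on chromosome 3.

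At promoters of the genes in the fixed lists there were 46 members, with a median GC content of 70.5%, and 28 of them were outside the single-sorted list. Both Nrl-/- libraries were above both rod libraries at 37 of the 46 and above all 6 other libraries at 15, where all members had shares of 73.3% and 31.0% and all elements of 41.6% and 8.24%, and nothing is read from these counts because membership rested on these libraries. The promoter shared by Hmx1, a homeobox gene of sensory neurons, and E130018O15Rik (chr5:35388435-35388634) had 18.2 and 15.9 CPM in the Nrl-/- pair, 1.67 and 2.26 in the rod pair, 4.40 and 2.74 in the single-sorted pair and 3.11 and 3.59 in the double-sorted pair. The Notch1 promoter (chr2:26503733-26503932), of a receptor that keeps progenitors undifferentiated, had 15.7 and 23.4 CPM in the Nrl-/- pair, 1.67 and 1.88 in the rod pair, 4.88 and 4.56 in the single-sorted pair and 1.55 and 1.80 in the double-sorted pair. At the printed promoter of Sema6d, a semaphorin of axon guidance, the values were 5.80 and 4.77 CPM in the Nrl-/- pair, 0 and 0.377 in the rod pair, 2.2 and 1.82 in the single-sorted pair and 1.55 and 0.898 in the double-sorted pair. The Nrl-/- libraries were the highest of all at these 3 promoters. At the promoter of Otx2, the homeodomain factor of photoreceptors and bipolar cells, they were not, with 7.45 and 14.3 CPM in Nrl-/- photoreceptors and 6.25 and 10.2 in rods. Accessibility of a promoter and RNA of its gene did not always go together. Sema6d RNA was higher in Nrl-/- photoreceptors (2.29, 0 and 1.26 normalized counts in rods, 20.9, 11.4 and 19.2 in Nrl-/-, log2 difference 3.74 ± 0.80 SE), whereas Hmx1 had at most 1.15 normalized counts in any library and Notch1 did not pass the test (632, 653 and 835 in rods, 1909, 1434 and 1047 in Nrl-/-, 1.08 ± 0.20).

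Members held the Q50 homeodomain letters TAATTA more often than other classes. TAATTA on either strand was present in 628 members (9.13%), against 4.71% of all elements, 6.32% of elements in both cone lists, 4.69% of those in the double-sorted list alone, 4.27% of those in the rod list alone and 2.72% of those in all 3 lists. It was present in 10.8% of members outside the single-sorted list and 6.23% of those inside it. TAATTA is rich in A and T, and the median GC content of members was 50.5% against 53.5% of all elements, so the shares were also taken within classes of GC content outside promoters. Between 45% and 50% GC, TAATTA was in 12.9% of 923 members outside the single-sorted list, 10.3% of 522 inside it, 8.53% of 2346 elements in both cone lists and 7.56% of all 10522 elements. Between 40% and 45% GC the shares were 18.6%, 12.6%, 14.4% and 12.7% in the same order. Members outside the single-sorted list had the highest share in all 6 classes of GC content, whereas members inside it were close to the share of all elements below 45% GC. No test was run on these shares, since elements are not replicates.

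**Figure D4:**
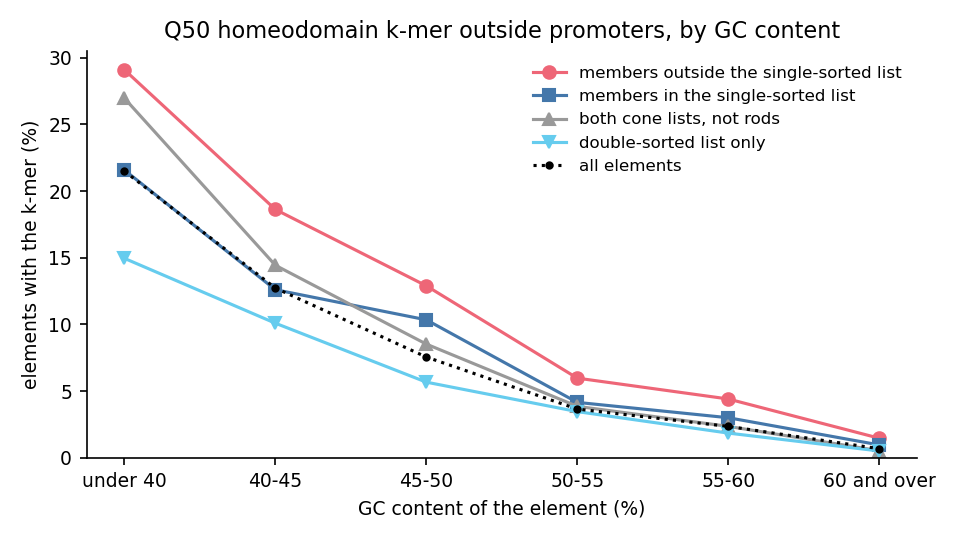
Share of elements outside promoters that hold TAATTA, in percent, by GC content of the element, for members outside and inside the single-sorted list, elements in both cone lists, elements in the double-sorted list alone and all elements. Members outside the single-sorted list have the highest share in each of the 6 classes, with 12.9% against 7.56% of all elements between 45% and 50% GC.

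The same letters varied among the members with the size of the difference between cone populations. When members were split into 5 groups of equal size by the log2 difference between Nrl-/- photoreceptors and single-sorted green cones, TAATTA was in 4.94%, 6.25%, 6.54%, 9.67% and 18.2% of members from the lowest to the highest group. The median GC content fell from 53.5% to 45.5% and the share in the single-sorted list from 65.9% to 7.27% over the same 5 groups, so these 3 properties moved together, and the list was called from the libraries that set the groups. CATCTG, a bHLH site, went from 15.2% to 22.2%, and CTAATCC, the K50 homeodomain site, from 5.23% to 8.36%. Over all members, CTAATCC was in 6.37%, against 7.61% of all elements and 9.15% of elements in both cone lists. Outside promoters it was in 7.02% of members, 9.54% of all elements and 10.1% of elements in both cone lists. Between 45% and 50% GC outside promoters these shares were 7.96%, 12.2% and 11.7%. Members were below all elements in each class of GC content, with 12.7% against 13.2% below 40% GC. The nuclear receptor site AGGTCA was in 12.4% of members, against 14.9% of all elements, 22.5% of elements in the double-sorted list alone and 23.6% of those in the rod list alone. Outside promoters AGGTCA was in 13.3% of members and 17.6% of all elements, and between 40% and 45% GC there in 16.3% and 20.3%. From 60% GC upward it was in 8.98% and 8.59%, the only class where members were not below all elements. TGANTCA, where bZIP factors bind, was in 5.32% of members, 6.28% of all elements and 11.7% of elements in the double-sorted list alone. Outside promoters these shares were 5.69%, 7.64% and 12.3%. The RNA of 2 genes of Q50 homeodomain factors is given, and they were chosen for this comparison after the sequence counts were seen. Lhx4, a LIM homeobox gene of cones and bipolar cells, had 20.6, 18.9 and 28.9 normalized counts in rods and 650, 621 and 578 in Nrl-/- photoreceptors (log2 difference 4.78 ± 0.21). Rax, a homeobox gene of retinal progenitors and photoreceptors, did not pass the test (321, 384 and 303 in rods, 215, 386 and 509 in Nrl-/-, 0.16 ± 0.26).

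RNA-seq of rods and Nrl-/- photoreceptors took no part in the rule and was tested over all genes with edgeR for a difference of over 2-fold, with Benjamini-Hochberg adjustment and a threshold of 0.05. The 6881 members were nearest to 4918 genes, of which 4601 were matched to the RNA table and 3017 had enough counts to be tested. Of these, 698 (23.1%) were higher in Nrl-/- photoreceptors and 184 (6.10%) in rods. The shares over all 12327 tested genes were 13.3% and 6.88%, and over genes nearest to any element 13.4% and 6.94%. The median log2 difference was 0.20 for the nearest genes of members and −0.01 for all genes. The 3 Nrl-/- libraries lay above the 3 rod libraries at 42.3% of the nearest genes of members and below them at 29.0%, against 32.8% and 34.3% of all genes. Genes near members inside and outside the single-sorted list had like shares higher in Nrl-/- photoreceptors, 23.1% of 1447 and 25.4% of 1996. Genes with a member at the promoter had the share of 30.9% (188 of 609) and a median of 0.50, and 21 (3.45%) were higher in rods. Genes with any element at the promoter had shares of 11.6% and 6.24%.

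Many genes near members were also nearest to an element open in both cone lists, and the shares differed with it. Where a gene had members but no such element, 265 of 1755 (15.1%) were higher in Nrl-/- photoreceptors, near the 13.4% of genes nearest to any element. Where it had both, 433 of 1262 (34.3%) were higher. Genes nearest to elements in both cone lists had a share of 28.2% and a median log2 difference of 0.35. Among genes with like numbers of elements, those with a member had the larger share. It was 22.2% against 8.66% at genes with 1 or 2 elements, 20.7% against 10.6% at 3 to 5, 26.9% against 14.5% at 6 to 10 and 24.7% against 14.6% at 11 or more. This comparison did not separate genes that also had an element in both cone lists. The share was 39.93% of 283 tested genes with 3 or more members and 49.1% of 55 with 5 or more. A gene set of this kind has no test of its own here, and these shares are descriptions beside the background.

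**Figure D5:**
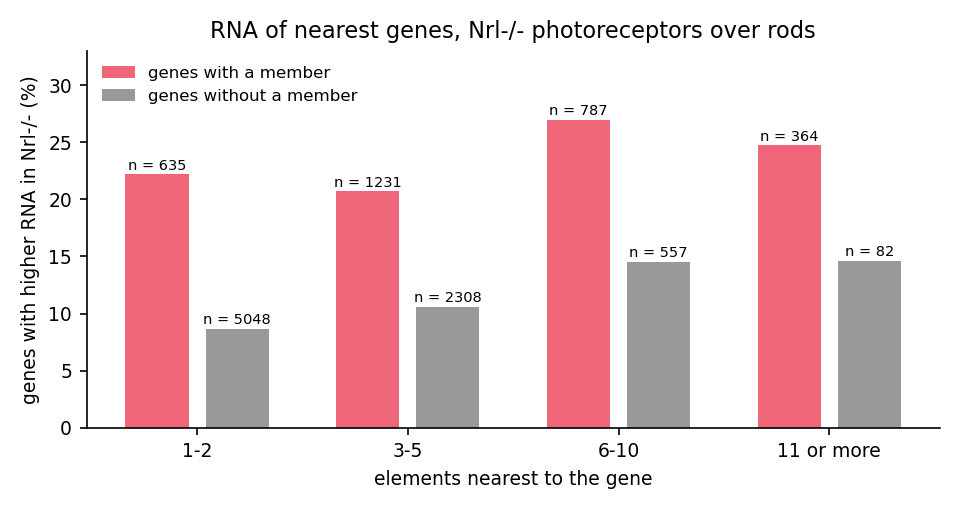
Percent of tested genes with higher RNA in Nrl-/- photoreceptors than in rods (edgeR, adjusted p under 0.05 for a difference of over 2-fold), by the number of ATAC-seq elements nearest to the gene, with bars for genes with and without a member and the number of tested genes above each bar. Genes with a member have the taller bar in all 4 classes, from 22.2% against 8.66% to 24.7% against 14.6%. They include genes that also had an element in both cone lists.

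Of the 10 genes near members that rose most in Nrl-/- photoreceptors, the largest difference was at Tc2n, a C2-domain gene with 2 members, which was at 0 in all 3 rod libraries and had 167, 226 and 247 normalized counts in Nrl-/- photoreceptors, at least 59.4-fold higher with a floor of 3 counts in each library. Ffar4, a receptor for long-chain fatty acids with 2 members, had 0, 0 and 2.51 normalized counts in rods and 379, 395 and 563 in Nrl-/- photoreceptors (log2 difference 8.94 ± 0.49). Smpdl3a, a phosphodiesterase related to acid sphingomyelinase, had 1.15, 0 and 1.26 in rods and 352, 503 and 459 in Nrl-/- photoreceptors (8.91 ± 0.42). For these genes the rod libraries were at or near the floor, so the size of the difference is poorly set.

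The difference was better measured at genes with more RNA. Ece1, which encodes endothelin-converting enzyme, had 6 members among its 13 elements, the most of these 10 genes, and 66.5, 69.8 and 88.0 normalized counts in rods and 19020, 18213 and 17588 in Nrl-/- photoreceptors (log2 difference 7.96 ± 0.17, adjusted p = 3.4e-11 by edgeR with Benjamini-Hochberg adjustment). Wwc1, a Hippo pathway scaffold also known as KIBRA, had 18.3, 39.0 and 20.1 in rods and 6329, 6483 and 6511 in Nrl-/- photoreceptors (7.98 ± 0.22). Abcb4, a phospholipid transporter, had 9.17, 5.92 and 2.51 in rods and 1639, 1635 and 1267 in Nrl-/- photoreceptors (7.98 ± 0.27). Its rod values were again near the floor, so the size of its difference is less well set. A lack of overlap between the groups was a condition for choosing these 10 genes. The other 4 were Bend5, Cadps2, Pik3ap1 and Rbp4, with log2 differences of 8.18 to 8.57.

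Members were also found near genes with more RNA in rods. Sv2c, a synaptic vesicle protein gene with 2 members, had 171, 87.5 and 76.7 normalized counts in rods and 0 in all 3 Nrl-/- libraries, at least 43.3-fold lower. Cnga1, the rod cyclic nucleotide-gated channel gene with 1 member, had 48803, 63190 and 50536 in rods and 108, 105 and 62.7 in Nrl-/- photoreceptors (log2 difference −9.18 ± 0.25). Hdc, which encodes histidine decarboxylase, fell from 2715, 2351 and 2402 to 8.71, 3.50 and 3.34. Epas1, the hypoxia-inducible factor HIF-2α gene, fell from 4045, 3905 and 4193 to 22.7, 69.1 and 28.4. Each of these had 1 or 2 members. Beyond the first 3 of the 10 genes, the log2 differences were −6.99 to −5.07, whereas the 10 rises were all 7.96 or more.

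The genes with the most members did not all differ in RNA. Bcor, a BCL6 corepressor gene, had 11 members among 39 elements and did not pass the test, with 949, 888 and 841 normalized counts in rods and 1196, 1223 and 1063 in Nrl-/- photoreceptors (log2 difference 0.40 ± 0.12). Mtus2, a microtubule-associated gene, also had 11 members and rose, from 44.7, 98.2 and 121 to 1586, 1331 and 1398 (4.06 ± 0.27). Nrxn3, which encodes the synaptic adhesion protein neurexin-3, had 10 members among 18 elements and rose from 112, 144 and 177 to 12190, 8270 and 8050 (6.07 ± 0.23). Schip1 had 9 members among 10 elements and rose from 5.73, 1.18 and 1.26 to 31.4, 24.5 and 25.1 (3.25 ± 0.63). Btg1, an antiproliferative gene with 7 members, did not pass the test, with a log2 difference of 0.11 ± 0.19. Adgrl2 and Setbp1, with 7 members each, passed with log2 differences of 1.81 and 1.96. Uaca with 8 and Zbtb7c with 7 passed with 1.5 and 2.63, but each lost its call under several alternatives.

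Of the 8 elements with the largest Nrl-/- ratio, the nearest gene rose in RNA at 2. Insm2 had 5.73, 9.46 and 21.4 normalized counts in rods and 103, 121 and 100 in Nrl-/- photoreceptors (log2 difference 3.17 ± 0.43). Sdc2 had 897, 1064 and 978 in rods and 3003, 3361 and 3066 in Nrl-/- photoreceptors (1.71 ± 0.12). Nckap5 missed the threshold with an adjusted p of 0.086 by edgeR with Benjamini-Hochberg adjustment and a log2 difference of 1.75 ± 0.45, and Lnx1 (0.64 ± 0.18) and Zfp503 (−0.19 ± 0.33) did not pass either. Ackr3, Cped1 and 1700109G14Rik had too few counts to be tested. An element and its nearest gene are matched by distance alone, so a gene further away may be the one concerned.

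Members lay near 11 of 17 listed genes of cone phototransduction and 2 of 19 of rod phototransduction. Of the genes nearest to any element, 29.1% of 15831 had a member, and this is the background for the lists. For the calls in them it is the 13.3% of all tested genes higher in Nrl-/- photoreceptors and the 6.88% higher in rods, or 23.1% and 6.10% of the tested nearest genes of members. The lists were not tested as sets, nor matched for the number of elements per gene. Genes with 1 or 2 elements numbered 1367 with a member and 7441 without, and those with 11 or more 412 and 97. Nothing is therefore read from list shares above 29.1%. The 11 cone genes had 21 members in all, and 9 of them rose in Nrl-/- photoreceptors and 1 was higher in rods. Cngb3, the cone channel beta subunit, had 107, 146 and 175 normalized counts in rods and 29363, 29323 and 29319 in Nrl-/- photoreceptors (log2 difference 7.71 ± 0.20). Pde6h, the inhibitory subunit of the cone phosphodiesterase, had 4 members and rose from 343, 395 and 311 to 27380, 35098 and 45866 (6.71 ± 0.22). The rod genes with members were Cnga1 and Pdc, the phosducin gene. Pdc did not pass the test (log2 difference −1.07 ± 0.18).

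Among 30 photoreceptor transcription factor genes, 17 had members (41 members), and of the 16 tested 4 rose and 4 fell. Rxrg, the retinoid X receptor of cones, rose from 16.1, 18.9 and 26.4 normalized counts to 4842, 5105 and 4812 (log2 difference 7.93 ± 0.18). Six6, a homeobox gene of the eye field, rose from 27.5, 43.8 and 39.0 to 4606, 5272 and 5256 (7.12 ± 0.18). Mef2c fell from 15073, 16984 and 15380 to 782, 678 and 646 (−4.47 ± 0.14), and Esrrb, an orphan nuclear receptor gene of rods, fell by 4.12 on the log2 scale. Otx2 had 3 members nearest to it and did not pass the test (−0.04 ± 0.11).

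Axon guidance and adhesion genes carried the most members of the lists, 73 at 32 of 61 genes, and of the 23 tested 12 rose and none fell. Beside Nrxn3, these included Unc5b, a netrin receptor gene, with 1.15, 1.18 and 2.51 normalized counts in rods and 286, 105 and 112 in Nrl-/- photoreceptors (log2 difference 6.64 ± 0.65). Cdh20, a cadherin gene with 3 members, rose from 4.59, 13.0 and 6.29 to 233, 302 and 239 (5.02 ± 0.34). Ribbon synapse and vesicle release genes had members at 12 of 23, with 3 higher in Nrl-/- photoreceptors and 1 in rods. Cplx3, the complexin of ribbon synapses, rose from 1009, 1435 and 1363 to 24801, 30489 and 32418 (4.55 ± 0.18), and Rims2, an active zone scaffold gene, fell by 1.3. The call of Rims2 and that of Syt1 were lost under several alternatives.

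Developmental transcription factor genes had members at 28 of 64, and of 16 tested 6 rose and 1 fell. They included Lhx4 and Zeb2, a zinc finger repressor gene with 3 members that rose from 12.6, 11.8 and 39.0 normalized counts to 349, 270 and 281 (log2 difference 3.86 ± 0.37). Of the immediate early genes, 10 of 25 had members and 5 of the 8 tested rose, among them Egr1, with 266, 71.0 and 116 in rods and 3750, 3378 and 5374 in Nrl-/- photoreceptors (4.80 ± 0.38). Egr genes respond quickly to stimulation and to cell handling. Gliosis and injury genes had members at 9 of 23. Socs3, the feedback inhibitor of cytokine signalling, had 3 members and rose from 9.17, 4.73 and 27.7 to 870, 675 and 605 (5.73 ± 0.38), whereas Edn2, an endothelin induced in stressed photoreceptors, fell from 228, 188 and 262 to 44.4, 43.7 and 51.8. The sums of microglia and Müller glia markers given above were higher in the same Nrl-/- libraries. Of the Müller glia markers, however, only 2 of 9 tested were higher, and the median log2 difference of the 9 was −0.35. The part of these cells was not tested.

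Wnt genes had members at 10 of 26, with Lgr5, an R-spondin receptor gene, rising from 9.17, 34.3 and 22.6 normalized counts to 4078, 3197 and 2909 (log2 difference 7.29 ± 0.29) and Tcf7l2, a Wnt effector, falling by 2.25. Notch genes had members at 6 of 15, with Notch2 rising from 34.4, 37.9 and 65.4 to 2050, 1725 and 1334 (5.24 ± 0.25). Genes of transforming growth factor beta and BMP signalling had members at 9 of 21. Inhbb, an activin subunit gene with 4 members, was at 0 in rods and had 34.0, 52.5 and 41.0 in Nrl-/- photoreceptors. Thyroid hormone and retinoid genes had members at 12 of 20, among them Rbp4 and Rxrg, which rose, and Rxra, which had 4 members and did not pass the test (−0.95 ± 0.14). Nuclear lamina and envelope genes had members at 7 of 15. Of these Lmnb1, the lamin B1 gene, had 4 members and fell from 178, 183 and 143 to 36.6, 20.1 and 18.4 (−2.72 ± 0.32), and Syne1 and Syne3, of the complex that links the nucleus to the cytoskeleton, fell by 1.83 and 2.71. Ion channel genes had members at 9 of 28, and of the 6 tested 0 rose and 1 fell, Kcnv2, a potassium channel subunit gene (−1.23 ± 0.12), whose call was lost under several alternatives.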

How the data were processed

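ATAC-seq and RNA-seq libraries were made from sorted mouse photoreceptors. The authors aligned reads to GRCm38 with Bowtie2 2.2.3 (ATAC-seq) or STAR 2.4.2a (RNA-seq), removed duplicates with Picard 1.121 and used SAMtools 1.3 and HOMER 4.8, as their processing notes and methods list them. They called reproducible ATAC-seq peaks per cell type with MACS2 2.1.0 and an irreproducible discovery rate, on fragments from nucleosome-free regions. The deposited peak lists give for each peak a score, a fold enrichment (a ratio over local background), a −log10 q-value and the summit position, with no value per replicate. The deposited ATAC-seq values are raw counts per 200 bp element made with bedtools 2.24.0, and the deposited RNA-seq values are raw counts per gene made with HTSeq 0.6.1p1.

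Members were elements in the Nrl-/- list only, as described, with 1-based GRCm38 coordinates, and gene names, start sites and sequence came from RefSeq annotation of the same build. The nearest gene was that of the nearest start site, and 4418 of 4918 nearest genes matched the RNA table by symbol, 183 by a synonym and 317 not at all. Members and gene lists were chosen with earlier results of these data known, and the lists are no independent evidence. Counts were tested with edgeR 4.0.16 in R 4.3.3 (quasi-likelihood fit, glmTreat for a log2 difference over 1, TMM scaling, edgeR's filter on low counts, libraries of the groups compared only), at an adjusted p of 0.1 for ATAC-seq and 0.05 for RNA-seq (Benjamini-Hochberg over all features tested). The scripts were tested on simulated data. Log2 differences are Nrl-/- minus the other group, or single-sorted minus rods, and ± gives the standard error from the quasi-likelihood F statistic, with n = 3 against 3 in RNA-seq. Normalized RNA counts are counts divided by the TMM-scaled library size, times the mean of those sizes. Rows of the RNA table that name no gene held 41.3% to 49.2% of the counts and were left out. A promoter is 1000 bp upstream to 100 bp downstream of a start site. Short sequences were searched as exact matches on both strands of each 200 bp element.

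Elements were named as the 8 with the highest mean Nrl-/- CPM, the 8 with the largest ratio of the lower Nrl-/- CPM to the highest of the 6 other libraries, each not below 3 counts (with at least 10 CPM in both Nrl-/- libraries), promoters of genes in 25 lists, those within 1 Mb of Nrl and those at the edge of the rule. Genes were named as the 10 nearest genes with the largest change each way (past the test, mean of at least 100 normalized counts in the higher group, no overlap), those with most members, and up to 4 per list with the largest change. Named exceptions are said to be chosen after their values were seen.

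Replicate numbers did not pair the libraries, so the fits have no block. Alternatives were DESeq2 1.42.0, RLE size factors, no filter, thinned counts, processed reads as library size, a replicate block, each library left out, and other overlaps and thresholds of the peak lists. Columns of the deposited tables that name no library of the series numbered 0.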

Additional observations from a re-analysis of the deposited data

How the results depend on the processing

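Minimum −log10 q values of 5 in all lists or 10 in the Nrl-/- list lie below every listed peak they apply to, so they could remove nothing and left 6881 members. There were 7000 members with an overlap of at least 100 bp and 5569 with whole peak intervals. Alternatives limited to Nrl-/- peaks as strong as the weakest rod peak, to members outside the single-sorted list or outside promoters, and other overlaps for sequence and position, were chosen after seeing the data. With the stronger Nrl-/- peaks there were 1239 members, 44.5% of them in the single-sorted list, nearest to 219 genes higher in Nrl-/- photoreceptors and 32 higher in rods, and 14.3% held TAATTA, 7.26% CTAATCC and 16.9% lay at promoters. With whole intervals these shares were 10.6%, 7.25% and 9.45%, and outside promoters TAATTA was in 10.2%, CTAATCC in 7.02% and AGGTCA in 13.3%. For RNA, the 698 and 184 nearest genes became 655 to 711 and 166 to 230 when each library was left out, 613 and 137 with DESeq2, and 700 and 192 with a replicate block. The block was not used because libraries of the same number did not deviate together (correlations of 0.188, 0.0859 and −0.0223 in RNA-seq and −0.0129 to 0.0647 in ATAC-seq). Of 950 values of 95 genes named or considered, 904 kept their direction and call, 39 kept their direction and lost the call, 1 gained it and 6 changed sign, all with 1 library left out and at genes that did not pass the test. Their log2 differences ranged over the left-out libraries at Ank3 (−0.27 to 0.0155), Auts2 (−0.0862 to 1.28), Btg1 (−0.19 to 0.25), Kdr (−0.43 to 0.25) and Wnt5a (−1.14 to 0.0485). Those that lost a call belonged to Egr2, Kcnv2, Onecut2, Rims2, Rspo2, Syt1, Uaca and Zbtb7c.

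In ATAC-seq, members higher in Nrl-/- photoreceptors than in rods numbered 1529 with DESeq2 (0 lower), 1686 with processed reads (5 lower), 2647 with the replicate block, and 1642 to 2748 (1 to 10 lower) when each library was left out, the lowest without Nrl-/- replicate 2. Against double-sorted green cones, members higher numbered 5 with RLE size factors, 7 without a filter, 11 with processed reads, 0 with thinned counts and 2 to 593 (0 to 3 lower) with each library left out. Against single-sorted green cones they numbered 35 with DESeq2, 257 thinned, 387 with the block and 127 to 332 (0 to 2 lower) with each library left out. Single-sorted green cones were above and below rods at 507 and 1 members with DESeq2, 524 and 371 with processed reads, 606 and 7 thinned, 1059 and 23 with the block, and 559 to 1227 and 13 to 81 with each library left out. A group of 1 library left in such a fit is assumed to vary like the other group, and the causes of these shifts were not tested.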

Other observations

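Members were spread over the genome in shares close to that of the whole table. They made up 10.6% of the elements of chromosome 7 and 14.8% of those of chromosome 14, which holds Nrl, and the other autosomes and chromosome X lay between these values. Within 1 Mb of Nrl, 18 of 113 elements were members (15.9%), and within 10 Mb 92 of 674 (13.6%), against 12.9% over all elements. The most accessible of the 18 lay near Rnf17 (chr14:56390272-56390471), with 14.9 and 25.2 CPM in Nrl-/- photoreceptors, 1.67 and 1.13 in rods, 4.40 and 3.65 in single-sorted and 4.66 and 5.39 in double-sorted green cones. An intergenic element near Gm10364 (chr14:55053707-55053906) had 18.2 and 16.3 CPM in Nrl-/- photoreceptors and at most 3.65 elsewhere. No test was run on these shares.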
